A study of Mus musculus with 6 samples.

Results

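Long noncoding RNA (lncRNA) genes that stand apart from protein-coding genes were examined for the transcription factor c-Myc in the mouse lung cancer lines PB115, PB119 and PB120. The set held 9997 of 12727 lncRNA genes in the RefSeq gene table for assembly GRCm38.p6, which has 49943 genes in all on the autosomes (1 to 19), X and Y. A gene was kept when both of its ends lay more than 2000 bp from every end of a protein-coding gene. That left out 2720 lncRNA genes, and another 10 were left out by symbol, namely those with a symbol starting with Snhg together with Gas5, Epb41l4aos, Pvt1 and Mir17hg where they were not already removed. Small nucleolar RNA host genes with other symbols, such as Dancr, stayed in the set. A gene was called bound in a line when the summit of a c-Myc peak lay within 1000 bp of either end.

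The peaks came from chromatin immunoprecipitation followed by sequencing (ChIP-seq) with a c-MYC antibody, with 1 ChIP library and 1 input library (chromatin without immunoprecipitation) for each line. The 3 groups were untreated as far as the labels say, and the sources used here give no genotype, strain, age or clone number for the lines. The lists hold no expression values, so the identity of the lines and the transcription of the lncRNA genes were not checked. With 1 library for each line there was no replicate, no test between lines was made, and the intervals below (Wilson, 95%) cover counting error over genes only. Where 3 values follow each other without a line name, they stand for PB115, PB119 and PB120 in that order.

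c-Myc binds DNA as a dimer with Max, and its preferred site is the palindromic E-box, CACGTG. A weaker site that keeps a CpG, CACGCG, is called the CG variant below. A weaker site without a CpG, CACATG, is called the CA variant. It is known mainly as an activator at promoters of genes for cell growth, and lncRNA genes have promoters transcribed by the same RNA polymerase as coding genes. Many lncRNA promoters are also poor in CpG and active in few tissues.

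The promoters below were chosen because they show the positions of E-boxes against c-Myc summits. Each runs from 250 bases before to 50 after the annotated start, 5′ to 3′ on the strand of the gene, as RefSeq gives it for GRCm38.p6, the assembly also called mm10. Capitals mark every match to these 3 motifs on either strand, so the reverse complements of both variants are in capitals too. None of the capitals in these windows overlap. Positions are counted from the start base, which is 0, and a motif's position is that of its first base. The windows lie at chr12:3235541-3235840 on the plus strand for Rab10os, chr17:26886197-26886496 on the minus strand for Gm17382, chr7:34234127-34234426 on the plus strand for Gm12758 and chrX:103493308-103493607 on the plus strand for Jpx. The others lie at chr19:5802623-5802922 on the minus strand for Malat1, chr9:88599390-88599689 on the plus strand for Gm26567 and chr14:61682324-61682623 on the minus strand for Dleu2.
Rab10os: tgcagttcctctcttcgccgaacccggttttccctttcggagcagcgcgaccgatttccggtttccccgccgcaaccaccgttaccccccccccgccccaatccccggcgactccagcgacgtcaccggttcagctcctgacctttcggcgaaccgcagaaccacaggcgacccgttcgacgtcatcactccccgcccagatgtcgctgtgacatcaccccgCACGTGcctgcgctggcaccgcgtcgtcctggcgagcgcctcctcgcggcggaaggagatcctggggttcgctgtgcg
Gm17382: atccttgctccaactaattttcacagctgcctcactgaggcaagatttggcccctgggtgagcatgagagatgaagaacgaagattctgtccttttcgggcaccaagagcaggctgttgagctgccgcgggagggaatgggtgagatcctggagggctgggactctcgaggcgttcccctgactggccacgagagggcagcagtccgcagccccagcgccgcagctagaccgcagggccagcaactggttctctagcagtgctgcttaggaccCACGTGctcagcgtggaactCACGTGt
Gm12758: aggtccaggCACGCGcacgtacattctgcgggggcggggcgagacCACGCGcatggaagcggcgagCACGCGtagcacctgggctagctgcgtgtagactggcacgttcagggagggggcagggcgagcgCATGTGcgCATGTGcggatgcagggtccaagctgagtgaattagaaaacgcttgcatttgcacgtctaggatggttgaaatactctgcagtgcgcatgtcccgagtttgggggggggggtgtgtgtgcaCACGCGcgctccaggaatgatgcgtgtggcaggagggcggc
Jpx: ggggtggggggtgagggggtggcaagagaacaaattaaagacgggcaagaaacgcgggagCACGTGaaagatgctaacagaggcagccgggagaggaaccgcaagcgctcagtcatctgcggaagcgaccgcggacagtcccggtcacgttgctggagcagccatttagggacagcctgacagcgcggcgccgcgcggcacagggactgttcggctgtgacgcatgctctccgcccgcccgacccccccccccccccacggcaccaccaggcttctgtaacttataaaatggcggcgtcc
Malat1: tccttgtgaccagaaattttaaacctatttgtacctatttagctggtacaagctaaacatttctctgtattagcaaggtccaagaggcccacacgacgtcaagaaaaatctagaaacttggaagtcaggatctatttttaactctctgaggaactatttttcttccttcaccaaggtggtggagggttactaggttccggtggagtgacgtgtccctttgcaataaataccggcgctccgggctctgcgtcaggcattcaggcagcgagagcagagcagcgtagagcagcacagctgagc
Gm26567: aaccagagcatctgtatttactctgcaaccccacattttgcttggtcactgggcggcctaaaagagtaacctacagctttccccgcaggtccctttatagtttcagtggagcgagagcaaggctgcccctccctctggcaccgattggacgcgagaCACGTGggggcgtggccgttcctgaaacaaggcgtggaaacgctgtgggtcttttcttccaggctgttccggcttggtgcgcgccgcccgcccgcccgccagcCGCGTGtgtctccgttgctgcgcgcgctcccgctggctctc
Dleu2: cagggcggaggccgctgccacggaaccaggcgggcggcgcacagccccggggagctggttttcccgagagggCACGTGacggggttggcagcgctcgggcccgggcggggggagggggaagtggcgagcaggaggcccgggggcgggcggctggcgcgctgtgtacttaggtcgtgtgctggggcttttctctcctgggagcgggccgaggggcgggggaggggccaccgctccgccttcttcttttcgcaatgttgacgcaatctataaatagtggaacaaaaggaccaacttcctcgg

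Rab10os and Gm17382 were bound in all 3 lines beside a palindromic E-box. The Rab10os E-box began at -28, and the PB115, PB119 and PB120 summits lay at -4, -1 and 1. Gm17382 had E-boxes at 23 and 43, and its summits lay at 31, 36 and 43. Gm12758 had no palindromic E-box but 4 matches to the CG variant, at -241, -205, -184 and 9, and its summits at -188, -193 and -172 lay around the third of them. Jpx, an lncRNA gene that acts in the activation of Xist, had its E-box at -190 whereas the summits lay downstream of the start, at 172, 234 and 184. In the window of Malat1 none of the 3 motifs was found, and summits lay at -8 in PB115 and 13 in PB120. Gm26567 and Dleu2 were bound in PB119 alone, with E-boxes at -94 and -178 and summits at -5 and -181. In this selection a palindromic E-box was therefore beside the summit in Rab10os, Gm17382 and Dleu2, and farther away or missing in the others.

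c-Myc was listed at few of these lncRNA genes and at many more protein-coding genes. In PB115, 199 of 9997 lncRNA genes were bound (1.99%, interval 1.73 to 2.28), against 23.6% of the 21887 protein-coding genes and 12.6% of all genes of the table. In PB119 the count was 364 (3.64%, 3.29 to 4.03), against 35.3% of protein-coding genes and 18.9% of all genes. In PB120 it was 128 (1.28%, 1.08 to 1.52), against 16.4% and 8.76%. The lines kept the same order for lncRNA and protein-coding genes, with PB119 highest and PB120 lowest. The order followed the length of the lists, which held 7830, 13527 and 5168 peaks from 40494386, 40726886 and 32299364 ChIP tags. With the 5168 peaks of smallest p in each list, 132, 127 and 128 of the lncRNA genes were bound, so the counts were then nearly level. The shares of protein-coding genes were then 17%, 18.2% and 16.4%, with PB119 still highest and PB120 lowest. How far the order reflects the cells, the depth or the immunoprecipitation was not tested. In bulk chromatin, binding in fewer cells and weaker binding in all cells cannot be told apart.

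**Figure D1:**
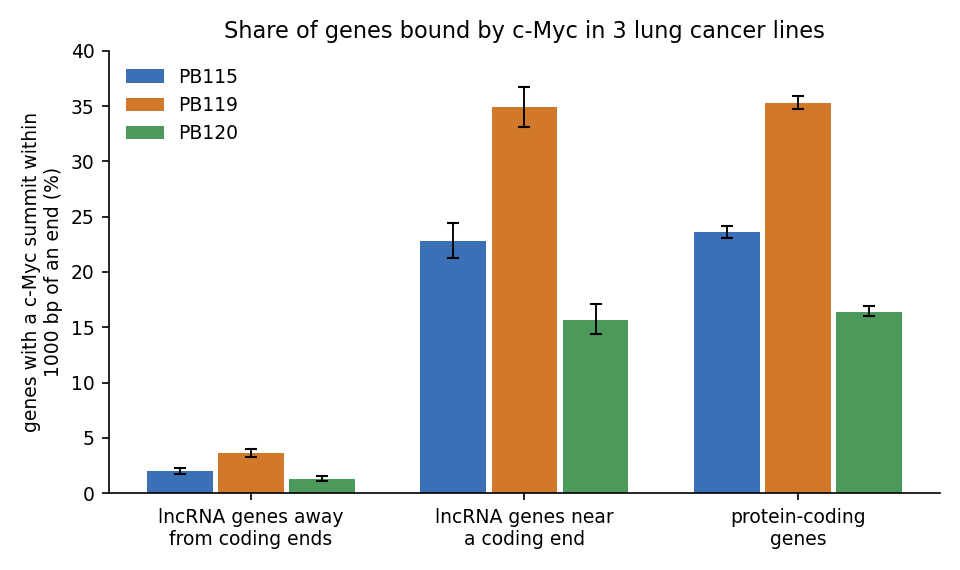
Percent of genes called bound (vertical axis) in PB115, PB119 and PB120, for lncRNA genes away from coding ends, lncRNA genes within 2000 bp of a coding end, and protein-coding genes. Bars are shares of genes and whiskers Wilson 95% intervals for counting error. The isolated lncRNA genes lie between 1.28% and 3.64%, while the nearby lncRNA genes reach 15.7% to 34.9%, close to the protein-coding genes.

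lncRNA genes close to a coding gene were bound nearly as often as coding genes. For the 2720 lncRNA genes within 2000 bp of a coding end the shares were 22.8% (21.3 to 24.4), 34.9% (33.1 to 36.7) and 15.7% (14.4 to 17.1), and a summit there can belong to the coding neighbour as well. Among the isolated genes the share also fell with distance. In PB119 it was 7.13% (5.77 to 8.79) of 1122 genes whose nearest coding end lay between 2000 and 5000 bp away. It was 5.57% (4.43 to 6.99) of 1238 genes up to 10000 bp, 3.92% (3.34 to 4.60) of 3621 up to 50000 bp, and 1.82% (1.45 to 2.28) of 4016 beyond that. PB115 fell from 3.74% to 0.971% and PB120 from 2.05% to 0.573% over the same ranges. The intervals of the nearest and farthest classes did not overlap in any line.

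Peaks at these genes had folds close to the median of each list. They made up 193, 352 and 124 peaks, or 2.46%, 2.60% and 2.40% of the lists. The authors' fold over input, which ranks peaks within a list, had medians of 9.46, 9.80 and 8.97 at lncRNA peaks, where the whole lists had 9.59, 9.80 and 8.96. Of the lncRNA peaks, 10.4%, 7.95% and 13.7% were in the upper 10% of their lists by fold. Peaks within 1000 bp of coding ends had higher medians, of 9.91, 10.5 and 9.07, and the remaining peaks away from coding ends lower ones, of 9.06, 8.92 and 8.70.

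Genes with a curated transcript were bound more often than those known only from gene models. Of 2253 genes with a curated RefSeq transcript, 7.59% (6.57 to 8.76) were bound in at least 1 line. Of 7744 genes with predicted transcripts only, 2.76% (2.42 to 3.15) were. By kind of name, 103 of 1253 genes with a clone name ending in Rik were bound in any line (8.22%), 248 of 8216 predicted genes named Gm (3.02%), and 6 of 102 opposite-strand genes (5.88%). None of the 12 genes named as a microRNA host by their symbol was bound in any line, which allows a share of up to 25%. Hosts with other names, such as Dleu2, are not in that class.

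The lines shared the bound lncRNA genes unevenly. Of 385 genes bound in at least 1 line, 95 were bound in all 3 (24.7%), which is 0.950% of the set against 14.4% of protein-coding genes. PB115 and PB119 without PB120 held another 99. PB120 shared 15 with PB119 alone and 2 with PB115 alone. Genes bound in a single line numbered 155 for PB119, 16 for PB120 and 3 for PB115. PB119 alone held 40.3% of the bound lncRNA genes against 28.6% of the bound protein-coding genes, and PB120 alone 4.16% against 0.879%. The share in PB115 and PB119 without PB120 was close, at 25.7% against 25%, and the share in all 3 lines was lower than the 40.2% of bound protein-coding genes. Of the PB115 genes, 97.5% (94.3 to 98.9) were also bound in PB119 and 48.7% (41.9 to 55.6) in PB120, where protein-coding genes had 98.9% and 61.2%. Of the PB120 genes, 85.9% (78.9 to 90.9) were bound in PB119 and 75.8% (67.7 to 82.4) in PB115, where protein-coding genes had 97.6% and 88.1%. Both PB120 intervals for lncRNA genes lay below those for protein-coding genes. At genes bound in both lines of a pair, the peaks overlapped by at least 1 bp in 187 of 194 for PB115 with PB119, 93 of 97 for PB115 with PB120, and 102 of 110 for PB119 with PB120. The median gap between summits was 22.0 bp for the first pair and 38.0 bp for the last.

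The 12 leading genes were bound in all 3 lines with the highest rank in their weakest line. Gm31068, a gene of 1531 bp on chromosome 5, had folds of 38.4, 60.9 and 26.7, from 246, 267 and 204 ChIP fragments at the summit. Its peak was the highest of all 13527 in PB119, and ranked 14 in PB115 and 19 in PB120. The PB119 peak, at chr5:142367216-142368080, lay past the end of the gene, with the summit 457 bp beyond it and 33840 bp from the nearest coding end, that of Foxk1. Per 10000000 ChIP tags, the summits held 60.7, 65.6 and 63.2 fragments, so coverage was alike across the lines while the fold was not. The input background there was 2.19, 1.56 and 3.61 times the genome-wide level, lowest where the fold was highest.

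Gm12758 on chromosome 7, whose promoter is printed above, had folds of 29.1, 42.1 and 29.3, and ranked 77, 38 and 9. Its 123, 163 and 105 fragments came to 30.4, 40.0 and 32.5 per 10000000 tags. The gene 1700028E10Rik had folds of 26.6, 31.5 and 17.9, with summits 76, 142 and 66 bp upstream of its start and inside the body of the coding gene Stard13. Gm38883 and Gm38882 are neighbours on chromosome 6 that shared 1 peak in every line, with folds of 21.0, 37.8 and 21.7. That summit lay 63, 77 and 16 bp past the start of Gm38882 and 894, 908 and 847 bp from an end of Gm38883. The pair therefore counts as 1 site.

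Among the promoters printed above, Rab10os and Gm17382 had an E-box beside the summit in all 3 lines, and their summits lay close to the start. Rab10os, an opposite-strand gene near the small GTPase gene Rab10, had folds of 20.6, 28.0 and 18.9 from 97, 134 and 92 fragments. Its peaks were 365, 334 and 307 bp long, where the lists had medians of 270, 286 and 247 bp. Gm17382 had folds of 19.6, 25.4 and 20.5 from 95, 130 and 88 fragments, with peaks of 348, 362 and 311 bp. For both genes the 3 lines lay in the upper 10% of their lists.

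Some of the other leading summits lay near or inside other annotated genes. Gm31585 had folds of 24.8, 23.0 and 18.7 at 860, 873 and 863 bp past its start, and was the only leading gene whose fold was not highest in PB119. The peak of 4833417C18Rik, with folds of 21.1, 24.8 and 16.1, lay 428 bp from a glutamine transfer RNA gene, measured from the PB119 summit. Gm30189 had 22.2, 30.9 and 14.9, with the PB119 summit inside Gnas, the imprinted gene of a G protein alpha subunit, and 376 bp from a listed Gnas start. Gm16104, with a summit inside the transcription factor gene Nfic, had 18.1, 39.2 and 13.0. The summit of 4930405A21Rik, with 14.1, 21.0 and 14.1, lay 96 bp from a listed start of Dlgap4. All 12 stayed bound in all 3 lines with peaks of p 1e-20 or less. They were chosen for high folds in the same lists, so this was built into the choice and is no separate support. With a window of 500 bp, 8 stayed bound in all 3 lines. Only 5 had a summit at most 100 bp from an end in every line, and 2 of the 11 with a promoter sequence held the palindromic E-box.

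**Figure D2:**
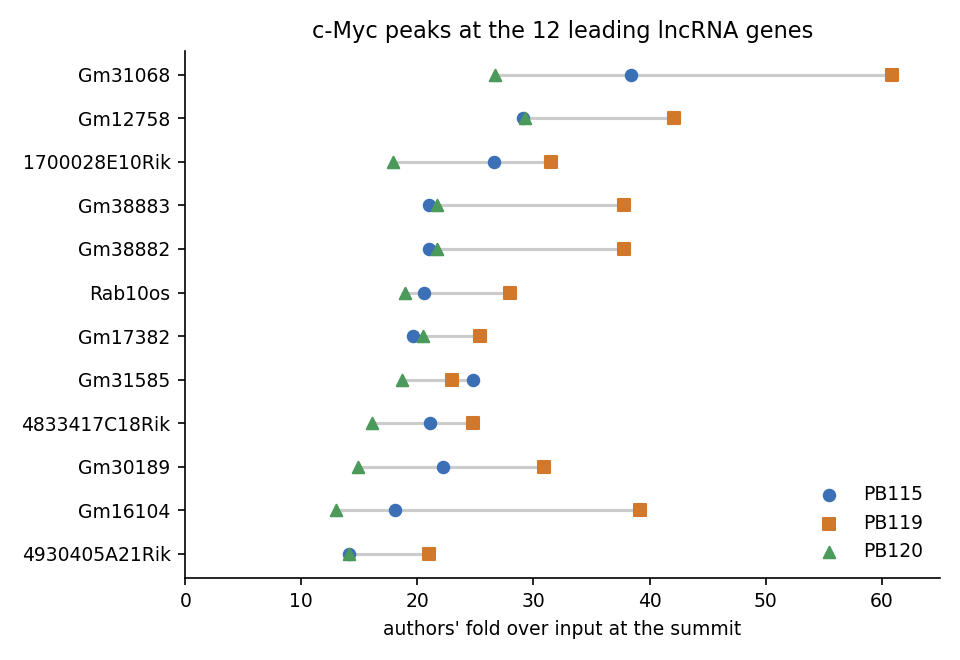
Authors' fold over input at the summit (horizontal axis, linear) for the 12 leading lncRNA genes, with 1 point for each line and a grey line joining the lowest and highest. PB119 is highest in 11 of the 12 genes, and Gm31068 spans 26.7 to 60.9. Folds also depend on each line's input, so sizes do not compare the lines directly.

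Across the 95 genes bound in all 3 lines, some ranked much lower or higher in PB120 than in both other lines. Percentile here means the rank of a peak's fold within its own list, with 100 the highest. The lists differ in length, so a percentile alone shows no change in binding. Median percentiles were 63.6, 75.2 and 61.5. Spearman's rho was taken over all genes bound in both lines of a pair, so the 3 values cover different gene sets and not the 95 genes alone. It was 0.68 in PB115 and PB119 over 188 peak pairs, a description with no p. In PB115 and PB120 it was 0.34 over 94, and in PB119 and PB120 0.36 over 106. These pairs share each line's library and input. Chosen after their values were seen, the genes that stood lowest in PB120 against the other lines were Jpx, 4930577N17Rik, Gm19417, Neat1 and Gm39090. Gm39090 had percentiles of 96.6, 98.4 and 36.9, with 24.9, 27.3 and 15.2 fragments per 10000000 tags and a background of 1.39, 1.17 and 2.77 times the genome level. Those that stood highest in PB120 were Gm40565, Gm15441, Gm29857, Gm19385 and Gm38737. Gm15441, whose nearest coding gene is Txnip, had folds of 9.43, 8.61 and 18.3, from 39, 42 and 89 fragments, or percentiles of 47.9, 36.4 and 96.3. Per 10000000 tags those fragments came to 9.63, 10.3 and 27.6. Gm40565 had folds of 7.08, 7.21 and 15.2, with 9.63, 7.12 and 18.3 fragments per 10000000 tags, so coverage as well as fold was highest in PB120 at both genes.

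Of the lncRNA genes with a described function, 51 were in the set, taken from lists for X inactivation, imprinting, nuclear architecture, cancer and proliferation, lung and development, and immunity and stress. Of these, 12 were bound in any line, with 9, 12 and 5 in the single lines. No list gene was bound in PB120 and not in PB119, while 7 were bound in PB119 and not in PB120. In the whole set 30.2% of the PB119 genes were also bound in PB120 and 85.9% of the PB120 genes in PB119, so the set as a whole had the same imbalance. By list, 1 of 4 X inactivation genes, 2 of 9 imprinted genes, 2 of 6 nuclear architecture genes, 6 of 17 cancer and proliferation genes, 1 of 13 lung and development genes and 0 of 5 immune and stress genes were bound in any line. Over the whole set 3.85% were, and of the 2253 genes with a curated transcript 7.59%.

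In the X inactivation list Jpx was bound in all 3 lines. Its folds were 22.8, 28.9 and 5.57, from 111, 127 and 40 fragments, so it ranked at percentile 96.9, 97.5 and 5.10. PB120 was far below the others. Per 10000000 tags the fragments were 27.4, 31.2 and 12.4, and the local input background was 1.53, 1.58 and 3.46 times the genome level, so lower coverage and higher background both went with the low rank. In PB120 the peak was lost at a p of 1e-20. Xist, the RNA that coats the inactive X, and Ftx, a gene of the same region, were not called, but summits lay just outside the window. They were 1432, 1449 and 1404 bp from an end of Xist, and 1162, 1188 and 1228 bp from an end of Ftx. The nearest summit to Firre was 1045888 bp away, in PB119.

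Of the nuclear architecture genes, Malat1 and Neat1 were bound in all 3 lines. Malat1, the abundant RNA of nuclear speckles, had folds of 8.21, 10.9 and 7.65 from 44, 50 and 49 fragments. Its summits lay 8 bp from an end in PB115 and 13 bp in PB120, whereas the PB119 peak of highest fold lay 901 bp upstream of the start and a weaker one 34 bp from an end. Neat1, the scaffold of paraspeckles, had 13.0, 14.3 and 6.78 from 77, 73 and 49 fragments, with summits 34, 27 and 61 bp from an end. Per 10000000 tags the fragments were 19, 17.9 and 15.2. Its percentile was 77.6, 77.1 and 16.1, and its background 2.0, 1.93 and 3.46 times the genome level. Norad, Miat, Nron and Meg3 had no summit within 20000 bp in any line.

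In the cancer and proliferation list, Dancr, which holds cells back from differentiation and hosts the small nucleolar RNA Snora26, had folds of 19.6, 32.4 and 8.82 from 101, 130 and 34 fragments. Its summits lay 370, 382 and 373 bp past the start, and the PB119 summit 88 bp from Snora26. Lockd, a gene downstream of the cell cycle inhibitor gene Cdkn1b, had 8.19, 12.5 and 12.1, with 14.1, 16.2 and 16.4 fragments per 10000000 tags, so PB119 and PB120 were level. With a window of 500 bp it was bound in PB120 alone. Carmn, a smooth muscle and cardiac lncRNA beside Mir143 and Mir145a, had 8.11 and 7.85 in PB115 and PB119. Dleu2, which hosts Mir15a and Mir16-1, was bound in PB119 alone at a fold of 14.8 from 48 fragments. Lncpint, induced by p53, had 7.85 in PB119 alone and Oip5os1, also called Cyrano, 7.07. With equal lists Carmn, Lncpint and Oip5os1 were not bound in any line, and with peaks of p 1e-20 or less Oip5os1 was not, while Carmn was bound in PB119 alone. The nearest summit was 205471 bp away for Hotair and 16198 bp for Trp53cor1.

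Both bound imprinted genes were listed in PB115 and PB119 and not in PB120. Kcnq1ot1, the antisense RNA that silences imprinted genes at Kcnq1, had folds of 15.8 and 15 from 66 and 51 fragments. These 2 peaks did not overlap, with the PB115 summit 61 bp and the PB119 summit 840 bp past the start. Another PB119 summit lay 40 bp from an end. The nearest PB120 summit to Kcnq1ot1 was 143975 bp away. Peg13, which lies inside Trappc9, had 6.38 and 15 from 35 and 58 fragments, with the nearest PB120 summit 250755 bp away. Under either stricter setting Peg13 was bound in PB119 alone. H19 was at least 42049 bp from any summit. In the lung and development list only Bvht, a heart development gene, was bound, with 7.26 and 10.1 in PB115 and PB119, and its PB119 summit lay 47 bp from Mir145a. Bvht was bound in PB119 alone with peaks of p 1e-20 or less, and in no line with equal lists. Sox2ot, Nkx2-2os and Six3os1 were not bound in any line.

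**Figure D3:**
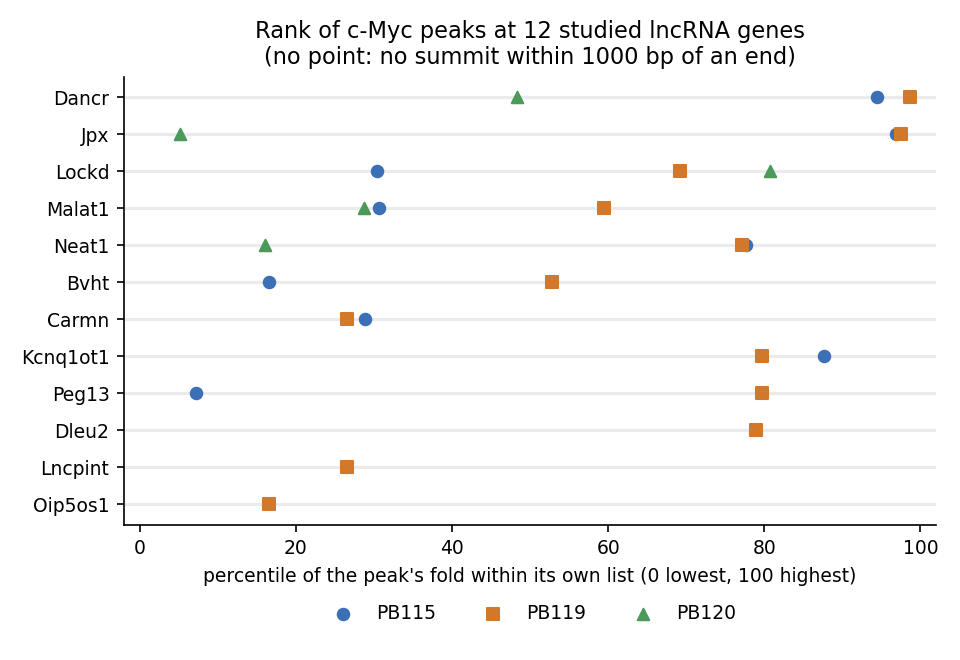
Percentile of the peak's fold within its own list (horizontal axis, 100 highest) for the 12 listed lncRNA genes bound in any line, with 1 point for each line where the gene was bound. Jpx falls from 96.9 and 97.5 in PB115 and PB119 to 5.10 in PB120, and 7 genes have no PB120 point. The lists differ in length, so a rank alone does not compare the lines.

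Genes bound in PB115 and PB119 and not in PB120 included strong peaks. The 5 highest by fold were Gm41856 with 12.5 in PB115 and 24.1 in PB119, Gm46567 with 13.4 and 19.8, 9930014A18Rik with 17.9 and 19.6, Gm36470 with 19.2 and 13.5, and Gm31127 with 10.9 and 18.8. With a window of 500 bp, 9930014A18Rik alone of these 5 kept its calls, and the others were bound in no line. At Gm36470 the peaks of the lines did not overlap, and a listed start of Cdk6, a kinase of the G1 phase, lay 605 bp from the PB119 summit. Scaled to the PB120 depth, the PB119 summits of all 99 such genes had a median of 38.1 fragments. Only 1 fell below the weakest PB120 peak, of 21 fragments, and 40 reached the median PB120 peak of 41. Whether their coverage in PB120 lay just under the threshold was not tested.

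The 155 genes bound in PB119 alone had weaker peaks. Their median fold was 7.93 and their median percentile 27.5, against 75.2 for the PB119 peaks of genes bound in all 3 lines. At PB120 depth their median was 27.0 fragments, 11 fell below the weakest PB120 peak and 0 reached the PB120 median. The highest were 9430037G07Rik and Gm26567, which share 1 summit between their divergent starts with a fold of 15.3 from 48 fragments. Dleu2 followed with 14.8, 5730522E02Rik with 12.8 and Gm13421, near a small nuclear RNA gene, with 12.3.

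PB120 alone had 16 genes, with a median fold of 8.31 and a median percentile of 39.9. Gm30724 had a fold of 16.5 from 60 fragments and Gm30796 one of 16.1 from 72, at percentiles 94.4 and 93.7. Gm40337, Gm34065 and Gm36715 followed with 11.3, 9.97 and 8.98. The PB115 genes were 3: Gm36183 with 8.77 from 35 fragments, Gm42161 with 7.67 from 43 and 4930517G24Rik with 5.98 from 34. The 4930517G24Rik peak overlapped a PB119 peak whose summit lay outside the window. None of these 3 genes was bound in any line with equal lists, and Gm42161 alone was with peaks of p 1e-20 or less. Gm30724 and Gm30796 kept their calls under both settings but had none with a window of 500 bp. All 3 PB115 genes ranked under percentile 40, and so did the median of the 16 PB120 genes. Gm30724 and Gm30796, the highest of those 16 by fold, were in the upper 10% of PB120.

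Where a strand was known, most summits were at the annotated start and not at the other end. The reference gave a strand for 7459 of the 9997 genes (74.6%) and 303 of the 385 bound ones. Among bound genes longer than 2000 bp, the summit was nearer to the start in 84.3% of 127 (76.9 to 89.6), 82.5% of 246 (77.3 to 86.8) and 83.1% of 83 (73.7 to 89.7). Protein-coding genes had 95.7%, 95.7% and 95.5%, above the intervals of the lncRNA genes. The median distance to the start was 186, 231 and 181 bp, against 133, 137 and 96 bp for protein-coding genes. Within 200 bp of the start lay 54.2%, 45.3% and 55.1% of the summits assigned to starts. They lay on both sides: 49, 97 and 31 were upstream, and 58, 106 and 38 at or past the start.

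**Figure D4:**
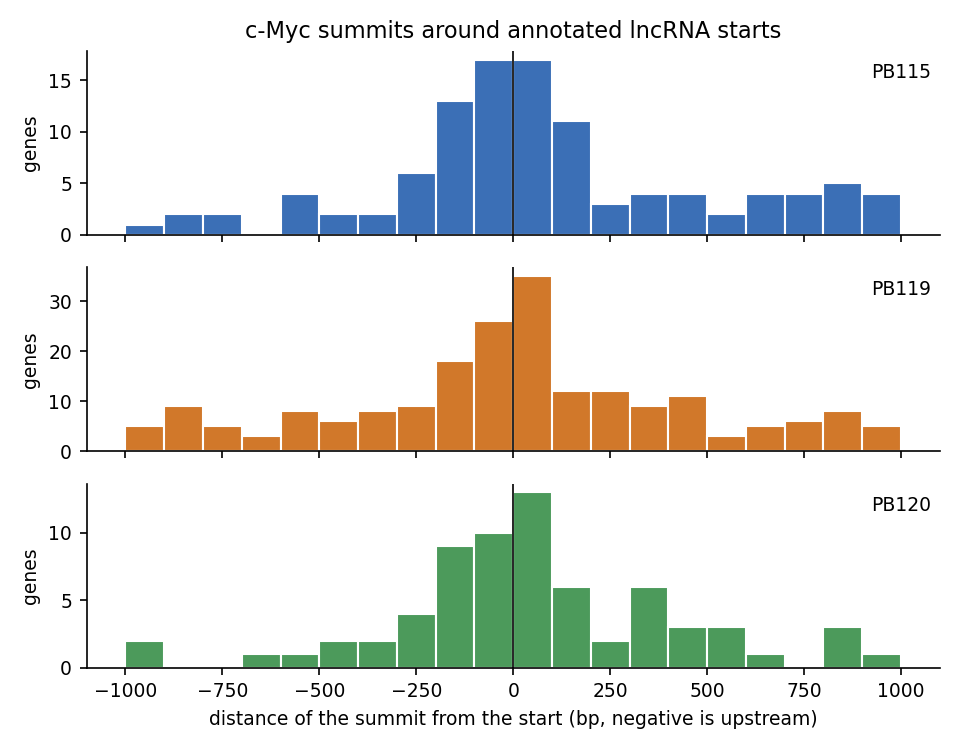
Number of bound lncRNA genes (vertical axis, scaled separately for each line) by distance of the summit from the annotated start in bins of 100 bp, negative values upstream. PB115 has 107 genes, PB119 203 and PB120 69, and the bins beside the start are the fullest in each line.

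Bound lncRNA promoters were richer than unbound ones in CpG and in both motifs that contain a CpG, but not in the CA variant. Among genes with a summit within 1000 bp of the start, median GC content was 59.3%, 57.3% and 58.5%, against 47.0% in 7213 genes unbound at the start. The median CpG count in the 300 bases was 15, 13 and 14, against 3.0. The palindromic E-box was present in 18% of 133 bound promoters (12.4 to 25.4), 15.1% of 239 (11.1 to 20.1) and 22.6% of 84 (15 to 32.6). Unbound lncRNA promoters had it in 5.25% (4.76 to 5.79), and all 27025 promoters of the table in 7.24%. The CG variant was in 18%, 15.1% and 17.9% of the bound, 1.89% of the unbound and 9.41% of all promoters. The CA variant was in 20.3%, 17.2% and 22.6% of the bound, 20.7% of the unbound and 14.1% of all promoters. Bound coding promoters had the palindromic E-box in 14.8%, 12.8% and 17.1%, with intervals that overlapped those of bound lncRNA promoters. They had the CG variant in 26.3%, 24.2% and 29.4%, and the CA variant in 7.73%, 7.41% and 7.89%. CpG content moved with both E-boxes that contain a CpG, and its part in the difference between bound and unbound lncRNA promoters was not tested.

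Within the promoters, palindromic E-boxes were concentrated at the summits. At most 25 bp from a summit, the palindromic E-box occurred at 5.03, 4.48 and 5.30 per 1000 positions, from 15, 21 and 12 matches. From 100 to 200 bp it occurred at 0, 0.103 and 0.433, from 0, 1 and 2 matches. Coding promoters had 2.19, 1.81 and 2.05 at the summit and 0.292, 0.225 and 0.308 at 100 to 200 bp. Of summits with 50 bp of promoter on both sides, 13 of 40 had a palindromic E-box within 50 bp in PB115 (32.5%, 20.1 to 48.0), 14 of 60 in PB119 (23.3%, 14.4 to 35.4) and 9 of 32 in PB120 (28.1%, 15.6 to 45.4). In coding promoters the shares were 14.1% (12.5 to 15.8), 12.5% (11.3 to 13.9) and 13.6% (12 to 15.4). For this motif the interval for lncRNA promoters lay above that for coding promoters in each line. The CG variant had no such order. At most 25 bp from a summit it occurred at 4.36, 2.99 and 1.33 per 1000 positions in lncRNA promoters. Coding promoters had 3.03, 2.82 and 2.65 there. The lower lncRNA value in PB120 rested on 3 matches, too few to compare. From 25 to 50 bp the order in PB120 was reversed, at 2.90 against 2.15. For the CA variant lncRNA promoters were higher in each line, at 2.68, 1.92 and 1.77 against 0.632, 0.638 and 0.620. These lncRNA values came from 8, 9 and 4 matches. The excess was not confined to the summit, as from 50 to 100 bp the values were 1.79, 1.00 and 1.40 against 0.302, 0.272 and 0.263. Unbound lncRNA promoters also held the CA variant more often than unbound coding promoters, at 20.7% against 14.0%. Many of the same promoters enter in more than 1 line, so the lines do not repeat the result independently.

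**Figure D5:**
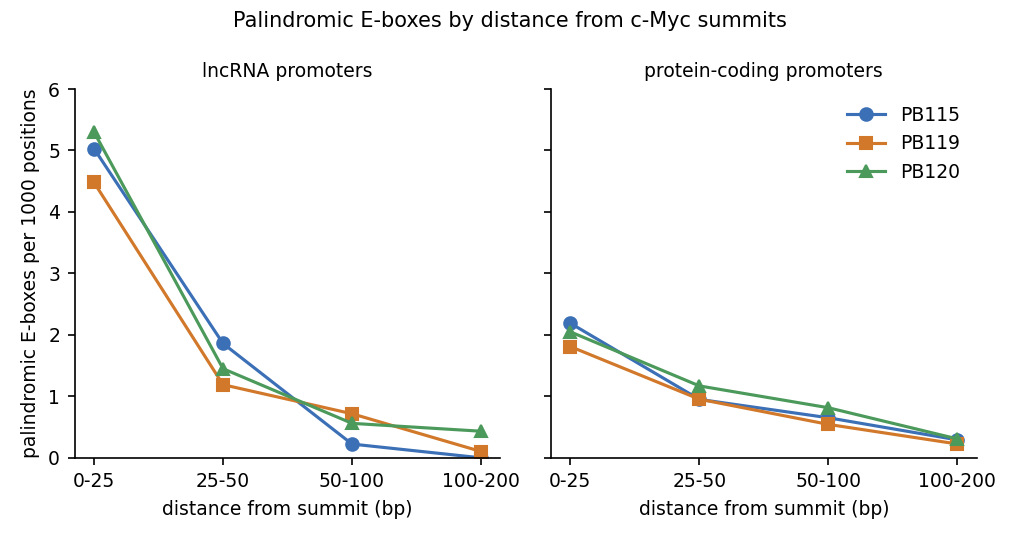
Palindromic E-boxes per 1000 promoter positions (vertical axis) by distance from the c-Myc summit in bp, for lncRNA promoters (left) and protein-coding promoters (right), 1 line for each cell line. Within 25 bp lncRNA promoters reach 4.48 to 5.30 and coding promoters 1.81 to 2.19, and from 100 to 200 bp the highest values are 0.433 and 0.308.

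Other annotated features lay near some of these summits. Of the 385 bound genes, 139 (36.1%) had a summit inside the body of a protein-coding gene, and 45 (11.7%) had one within 1000 bp of a listed coding start that is not a gene end, among them starts of Pfkfb3, Prkag2, Tet3, Hk1 and Gpam. Separately, 27 (7.01%) had a summit within 1000 bp of a small RNA gene, and for 17 of them it was a transfer RNA gene, in some cases the same one for neighbouring lncRNA genes. The nearest protein-coding gene was itself bound in 32.7% of the PB115 genes, 45.6% of the PB119 genes and 29.7% of the PB120 genes, where all protein-coding genes had the shares given above. Whether these peaks act on the lncRNA gene, the coding gene or neither was not tested.

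AY036118 on chromosome 17 stood apart in its background. Chosen after its values were seen, this gene had a peak in each line, with low folds of 3.38, 4.88 and 2.34, but from 264, 271 and 282 fragments. Its input background was 33.6, 25.7 and 67.2 times the genome level, the highest of any bound lncRNA gene in each line. Median backgrounds at these genes were 1.63, 1.56 and 2.06 times the genome level.

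By chromosome, bound lncRNA genes were spread over all but the Y chromosome, where 0 of 30 were bound. On chromosome 18, named after its values were seen, 5, 11 and 0 of 343 were bound. The 0 in PB120 allows a share of up to 0.875%, where the whole set had 1.28%. Chromosome 14 had 1 of 490 in PB120. A chromosome picked for its low count cannot show a depletion. Chromosome 8 held 8.20% of all PB120 peaks against 5.12% and 5.20% in PB115 and PB119, and 5 of its 549 lncRNA genes were bound in PB120, against 9 and 11, too few to compare the lines.

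The 1000 bp limit cut through a gradual fall. Summits lay up to 500 bp from an end at 137, 252 and 92 genes, with 62, 112 and 36 more up to 1000 bp. A further 46, 63 and 30 genes had their nearest summit in the next 500 bp outside the window. The genes just inside the limit were Gm32298 at 998 bp in PB115, Gm46871 at 995 bp in PB119 and Gm40325 at 991 bp in PB120. Just outside were Gm40325 at 1004 bp, Gm33330 at 1012 bp and A930004D18Rik at 1018 bp. Gm40325 was thus bound in PB120, and in PB115 its nearest summit was just outside.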

How the data were processed

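c-Myc ChIP and input libraries of 3 mouse lung cancer lines were grouped by the line named in their titles. Reads were processed on build mm10 with Bowtie, SAMtools and MACS2, per the submitters' processing notes (aligner version not given in the sources used here). Peak calling, per the file headers, was done in each line against its own input with MACS 2.1.0.20140616 at a p-value cutoff of 1e-10, with local background over 1000 and 10000 bp, at most 1 tag kept per position and the larger library scaled to the smaller. Keeping 1 tag per position limits the coverage of high peaks. The pileup, as deposited, is the summit's coverage signal in ChIP fragments, which the authors scaled to the input's depth. The deposited fold is a ratio that the authors' caller took as pileup over local background with a pseudocount added to both. The deposited −log10 p-value, from the authors' caller, was used only for stricter lists. Positions are as deposited by the authors.

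Fragments were recovered by undoing that scaling with the tag totals and were whole within 0.0071. Input depth was 28380432, 37979638 and 26156520 tags in PB115, PB119 and PB120, and the weakest listed summits held 24, 19 and 21 fragments. A gene without a call had no listed summit within 1000 bp of an end. It could still have a listed summit farther away or inside the gene, or weaker binding that missed the authors' cutoff. Background was recovered from pileup and fold. The gene's peak of highest fold was used where several counted. Genes, promoters and strands came from RefSeq tables of GRCm38.p6, and no genome sequence was used. Python 3.11.15, pandas 2.3.3, numpy 2.4.6, scipy 1.17.1 and matplotlib 3.10.9 were used, and the calling rule was tested on simulated data. Named genes were the 12 bound in all 3 lines with the highest percentile in their weakest line, the 5 with the highest fold in a single line or in PB115 and PB119 alone, bound genes of the function lists, and those nearest the 1000 bp limit. The members and lists were chosen with earlier results of these data known. Other windows, p-values, list lengths, gene sets and overlaps were tried.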

Additional observations from a re-analysis of the deposited data

How the results depend on the processing

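Counts depend most on the window, on whether summits inside genes count and, in PB119, on the length of the list. With 5000 bp, 551, 916 and 389 lncRNA genes were bound in PB115, PB119 and PB120, 285 in all 3 lines and 379 in 1 line. Counting summits inside genes gave 384, 672 and 261, with 179 in all 3 and 318 in 1. With peaks of p 1e-20 or less, PB120 had 85 and all 3 lines 61. With equal lists, PB115 had 132, PB119 127 and 1 line 76. Outside coding gene bodies, PB115 had 120, PB119 214 and 1 line 99, of a smaller set of 7064 genes. As shares these were 1.70%, 3.03% and 1.40%, against 1.99%, 3.64% and 1.74% of the full set. Annotated starts alone left 115 in 1 line. At genes bound in all 3 lines, the peaks of the 3 lines overlapped in 93.7%, but in 61.1% at 50% reciprocal overlap and in 85.3% with summits at most 200 bp apart. PB119 had the most bound genes and PB120 the fewest under every other window, p-value and gene set tried, and only equal lists ended that order; the cause was not tested. The alternative without summits near listed coding starts was chosen after seeing the data and gave 175, 320 and 113. The number of tags and the single library for each line limit which weak peaks could be listed. No paired analysis was possible because each line had 1 ChIP library.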
